A study of Larimichthys polyactis and Larimichthys crocea with 36 samples.

Results

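The table of brain, liver and muscle RNA from 2 yellow croaker species and their hybrids held 99 transcript identifiers (IDs) with the prefix BGI_novel whose level was highest in muscle. They were chosen by their values. An ID had to start with BGI_novel and to have 1 or more libraries of each parental species with an FPKM no lower than 1. Its mean over the 12 muscle libraries had to be higher than its brain and liver means and at least 20. FPKM is a level per transcript length, scaled to the total of the library. The 99 IDs were 3.56% of the 2782 BGI_novel IDs and 0.409% of all 24212 IDs in the table. Of the BGI_novel IDs, 1598 met the presence rule in both species and 200 of these had their highest tissue mean in muscle. The other 21430 IDs start with evm and are called EVM IDs below, and 766 of them met the same rule in muscle.

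The parents were LP, the small yellow croaker Larimichthys polyactis, and LC, Larimichthys crocea, known as the large yellow croaker. Both parents and the 2 reciprocal hybrids, LPC and LCP, each gave 3 libraries of brain, 3 of liver and 3 of muscle, 36 in all. The labels give no age, sex or treatment, do not name the mother's species of either hybrid, and leave unstated if a group's 3 libraries are different fish. The p-values therefore reflect library-to-library spread, which may be technical. The design text concerns the 4 crosses across 3 tissues, so the parents were compared with each other and the hybrids with their parents. In bulk tissue, fewer cells of a type and less RNA per cell cannot be told apart.

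An ID of this kind usually stands for a transcript built from mapped reads where the annotation holds no gene model, and it can be a missing protein-coding gene, a non-coding RNA or a fragment of a known gene. Skeletal muscle is known for a transcriptome in which a small number of transcripts, chiefly of contractile proteins and of sugar breakdown, take a large share of all reads. A first-generation hybrid carries a genome copy from each parent, so a transcript made from 1 parental copy only is often seen at a level between those of the parents. How the BGI_novel IDs were called, and their lengths and sequences, is information not given in the sources used here. The files pair no ID with a gene name, so no role is given to any ID and no muscle, brain or liver marker gene could be looked up.

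The labelled tissues were checked by how libraries grouped. Spearman correlations over all IDs were 0.901 to 0.961 within a group and at least 0.857 within a tissue, and at most 0.705 between tissues. LC muscle replicate 3 stood apart from the other LC muscle libraries, with 39 of the 99 IDs at least 2-fold above both of them, against 14.2% of the 766 muscle-peaking EVM IDs. In LPC muscle, replicate 3 lay between the other replicates in 104 of 113 variable IDs, or 92.0%, and in 76 of the 99 IDs, whereas the same share for the other 35 libraries was 0.885% to 69.4%. For most comparisons, counts of calls in muscle are also given without 1 or both of these libraries. So are single values that either library moved past the threshold or by 1.5 log2 units or more.

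The 99 IDs were abundant and mostly near absent outside muscle. The median of their muscle means was 136 FPKM, and 55 IDs had a mean of 100 or more. BGI_novel_G000016, BGI_novel_G002581 and BGI_novel_G002568 were listed at 0 in every brain and liver library. No ratio of muscle to the next tissue could be formed for them. Among the rest, the median ratio of the muscle mean to the mean of the next tissue was 468, with a range from 1.03 to 13572. The ratio was at least 100 in 70 IDs, at least 10 in 76 and at least 2 in 81. The IDs at 0 in both tissues are not in these counts. Brain was the next tissue for 83 IDs, which include those at 0 in both, and liver for 16. A mean under 1 FPKM in both brain and liver was found for 56 IDs. Muscle was the highest tissue in the means of all 4 crosses for 83 IDs. These tissue differences chose the set and carry no test. The IDs just inside the threshold were BGI_novel_G002475, BGI_novel_G000014 and BGI_novel_G002568, with muscle means of 20.1, 20.5 and 21.98, and those just outside were BGI_novel_G002554, BGI_novel_G001465 and BGI_novel_G001582, with 19.9, 19.0 and 18.7. With tissue medians in place of means the rule kept 79 IDs, 76 of them shared with the 99.

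**Figure D1:**
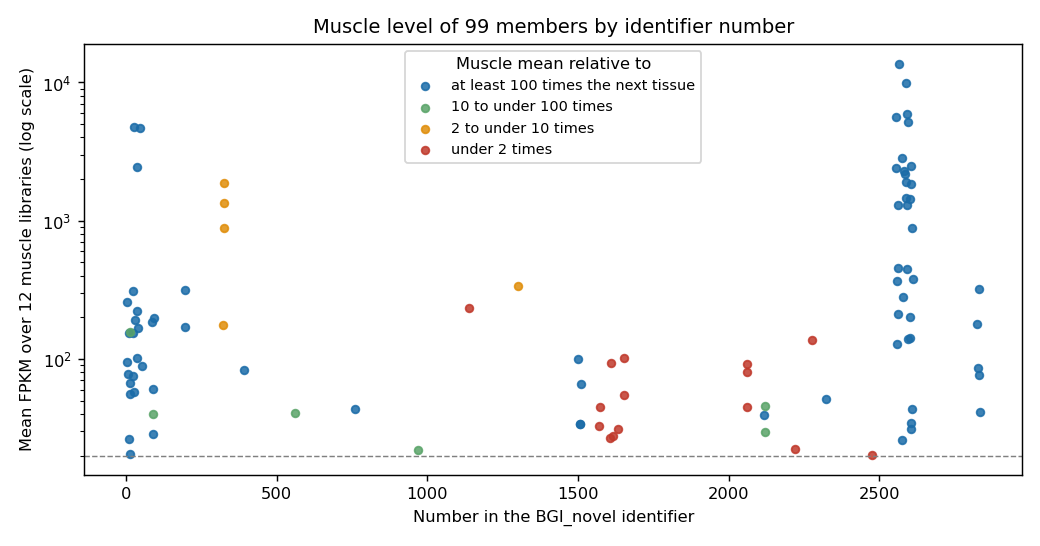
Mean FPKM over 12 muscle libraries (log axis) of IDs among the 99, against the number in the identifier. Colour shows the ratio of muscle to the next tissue, and the dashed line is the threshold of 20. BGI_novel_G000016, BGI_novel_G002581 and BGI_novel_G002568, for which no ratio could be formed, are not drawn. The highest levels sit in 2 bands of numbers, 3 to 54 and 2556 to 2611. Every ID drawn in these bands is at least 80.7 times its next tissue.

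Together the 99 IDs took 13.6% ± 1.36 of the summed FPKM in LP muscle, 7.19% ± 3.78 in LC muscle, 13.2% ± 0.637 in LPC muscle and 12.8% ± 2.25 in LCP muscle (SD, n = 3 each). The 3 LC muscle libraries held 5.12%, 4.89% and 11.5%, so 2 of them lay below all 9 other muscle libraries, which held 11.3% to 15.4%. In brain the share was 0.274% to 0.663% per library and in liver 0.0226% to 0.0666%. The 10 most abundant IDs made up 65.5% of the summed muscle means. Sums of FPKM over all IDs were 492062 to 1029194 per library and do not measure depth, which is unknown.

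The most abundant ID was BGI_novel_G002565. In LP muscle its FPKM was 22612, 20343 and 24423, in LC muscle 18.6, 32.6 and 2439, in LPC muscle 15969, 17051 and 16017, and in LCP muscle 18266, 12607 and 14633. All LP and hybrid libraries were above all LC libraries, and LC replicate 3 was the highest of its group by far. Its brain mean was 13.8 and its liver mean 0.414. BGI_novel_G002590, with a muscle mean of 9850, had 19381, 3848 and 20394 in LP, 16.5, 51.7 and 3321 in LC, 8819, 13954 and 10210 in LPC, and 26790, 3005 and 8410 in LCP. The LP libraries did not overlap the LC libraries, but 1 library each of LP and LCP fell to the level of LC replicate 3. BGI_novel_G002556, with a muscle mean of 5646, ran the other way, with 0, 22.6 and 0 in LP against 7630, 12331 and 10615 in LC, 1256, 7892 and 6320 in LPC, and 7516, 7177 and 6993 in LCP. Its LP libraries lay below all 9 others. The rest of the 10 most abundant were BGI_novel_G002593 at 5904, BGI_novel_G002596 at 5162, BGI_novel_G000028 at 4747, BGI_novel_G000046 at 4715, BGI_novel_G002577 at 2821, BGI_novel_G002604 at 2476 and BGI_novel_G000036 at 2452 (means over 12 muscle libraries).

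IDs with close numbers made up most of the set, a grouping chosen after the values were seen. With at most 10 between neighbouring numbers, 88 of the 99 IDs fell into 12 runs and 11 stood alone. The share of IDs with another of the set within 10 was 88.9%, against 79.7% of 148 BGI_novel IDs that met the same rule in brain and 68.6% of 70 in liver, so close numbers were common in each tissue's set. What the number stands for, a place on a chromosome or an order of another kind, is likewise not given in the sources used here. The largest run, BGI_novel_G002556 to BGI_novel_G002611, held 33 of the 99 IDs among 54 BGI_novel IDs of that range and 74.7% of the summed muscle means. A further 8 IDs in that range had a muscle mean of at least 20 but were not present in both species. The second run, BGI_novel_G000003 to BGI_novel_G000054, held 22 IDs among 52 and 16.3% of the sum, with 9 further IDs of that kind.

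The runs differed in how far their summed level followed species. Over all BGI_novel IDs from BGI_novel_G002556 to BGI_novel_G002611, the sum in muscle was 84584 ± 7530 FPKM in LP, 73329 ± 33949 in LC, 78694 ± 16254 in LCP and 82849 ± 4780 in LPC (mean ± SD over 3 libraries). LC replicates 1 and 2, at 56662 and 50934, were below every LP library, of which the lowest held 76575. Only LC replicate 3, at 112390, was above all of them. The 33 IDs of the set in that range alone summed to 24691, 28578 and 78944 in LC and 87188, 75832 and 76279 in LP. There LC replicate 3 lay within the LP range and the other LC libraries below it. From BGI_novel_G000003 to BGI_novel_G000054 it was 26355 ± 2313 in LP, 6543 ± 3647 in LC, 15920 ± 1714 in LCP and 21750 ± 2310 in LPC (mean ± SD over 3 libraries). The highest LC library, at 9614, was below every library of the other 3 crosses. No test was made on these sums.

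**Figure D2:**
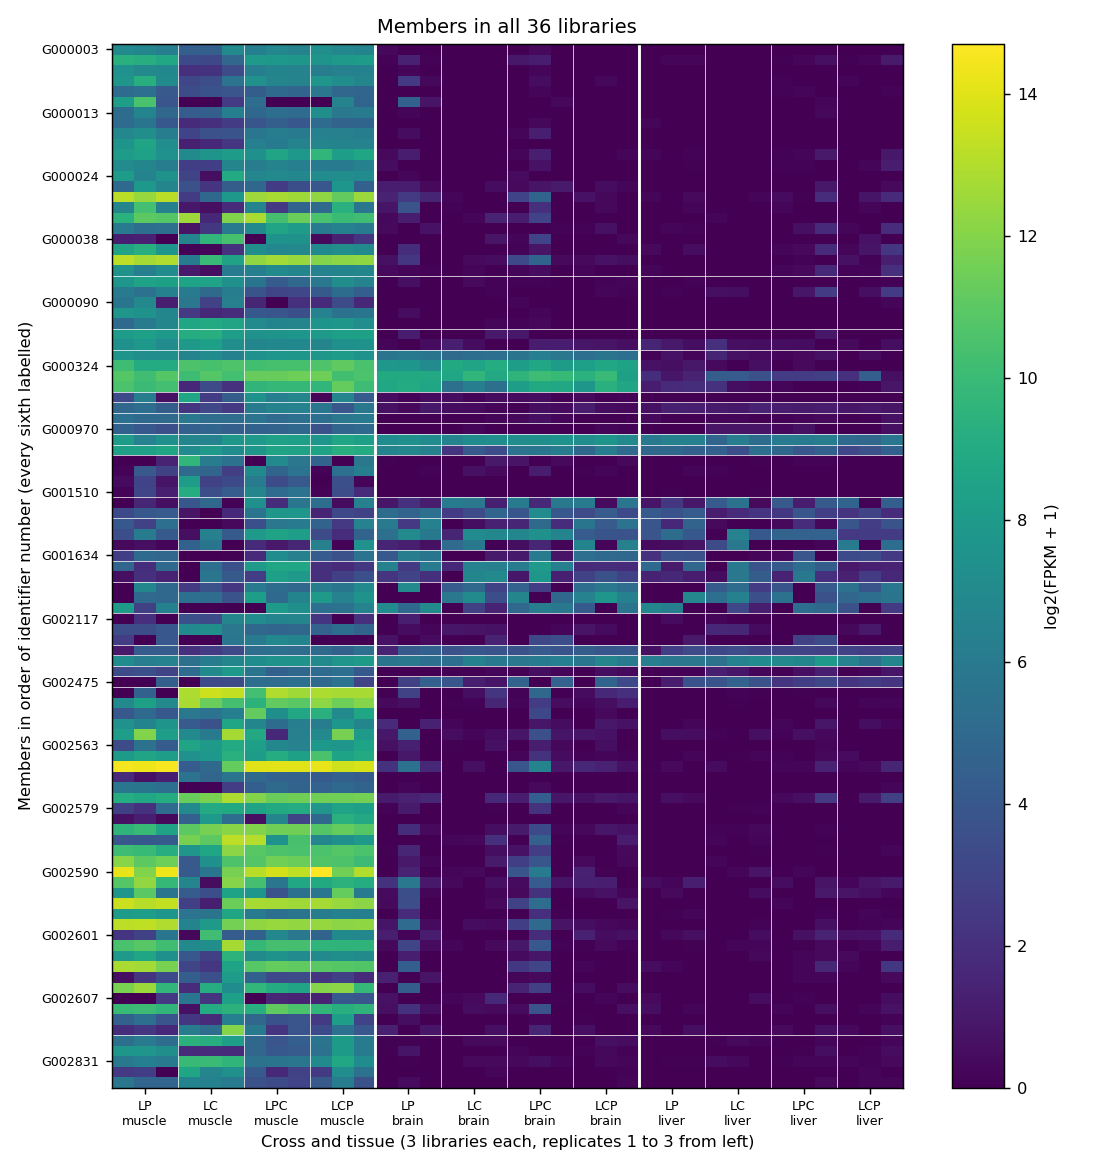
log2(FPKM + 1) of the 99 IDs (rows, in order of identifier number, with thin lines between runs) in all 36 libraries (columns by tissue and cross). The muscle block is bright in nearly all rows, while brain and liver are near 0 except for a group in the middle and the run at BGI_novel_G000324; LC muscle replicate 3, the last of its 3 columns, is brighter than the other LC muscle libraries in many rows at the bottom.

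The run BGI_novel_G000323 to BGI_novel_G000326 differed from the 2 largest in being present in brain as well. Its 4 IDs had muscle means of 175, 1335, 1868 and 889 FPKM in order of number, and muscle stood only 2.62 to 3.84 times above brain, while the liver means were 0.268 to 7.77. BGI_novel_G000326 was near absent from LC muscle alone. It had 1475, 1026 and 1262 in LP, 2.13, 9.52 and 3.36 in LC, 776, 899 and 887 in LPC and 826, 2386 and 1111 in LCP. The LC libraries were all below the 9 others, and the hybrid libraries overlapped those of LP. In LC muscle this ID was below its own level in LC brain, where the 3 LC brain libraries held 41.4, 75.9 and 42.3 against 435, 536 and 425 in LP brain. Its neighbour BGI_novel_G000324 had 1108, 538 and 532 in LP muscle and 1563, 1359 and 1619 in LC muscle, so the LC libraries were all above those of LP. BGI_novel_G000325 had 1849, 1173 and 1823 in LP and 1138, 1830 and 1258 in LC, and the groups overlapped. These neighbours were chosen after their values were seen.

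A group of IDs in the middle of the number range was as high in brain as in muscle. The lowest ratios of muscle to the next tissue were 1.03 for BGI_novel_G001606, 1.06 for BGI_novel_G001570, 1.17 for BGI_novel_G001615, 1.19 for BGI_novel_G001634 and 1.26 for BGI_novel_G001611, all with brain next. BGI_novel_G001615 had 0.290, 0.540 and 0.140 in LP muscle, 22.3, 51.1 and 0 in LC, 2.31, 0.970 and 2.04 in LPC, and 84.5, 0.1 and 170 in LCP. It was low in all LP and LPC libraries and split within both LC and LCP. The same libraries were high and low in brain, with 34.9, 61.2 and 0.05 in LC and 99.9, 0.150 and 82.5 in LCP. In liver the 3 LC libraries held 9.87, 57.8 and 0, and the 3 LCP libraries 62.2, 0.1 and 38.8. The replicate that was low was thus number 3 in LC and number 2 in LCP in all 3 tissues. Without its highest muscle library, muscle was no longer the highest tissue for 6 of the 99 IDs, among them all 5 with the lowest ratios.

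At the other end, BGI_novel_G001507 had the highest ratio that could be formed, 13572, on a muscle mean of only 33.9. Its FPKM was 0.350, 6.65 and 0.780 in LP, 284, 6.48 and 8.82 in LC, 63.9, 9.19 and 16.1 in LPC, and 0, 11.0 and 0.160 in LCP. LC replicate 1 alone held 69.7% of its 12-library sum, and without that library the mean was 11.2. In 13 of the 99 IDs a single library held over 50% of the sum, and 8 would have had a muscle mean under 20 without their highest library. The largest such shares were 94.2% in BGI_novel_G002611, 76.2% in BGI_novel_G002607 and 74.0% in BGI_novel_G002605, all in LC replicate 3, 75.2% in BGI_novel_G000012 in LP replicate 2, and 70.2% in BGI_novel_G001510 in LC replicate 1.

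LC and LP muscle differed in much of the set, in both directions, with LC higher in 24 IDs and lower in 33. Differences were tested with limma on log2(FPKM + 1) over all 10847 IDs with FPKM of at least 1 in at least 3 muscle libraries, with Benjamini-Hochberg adjustment and a threshold of 0.05. All 99 IDs passed that filter, and 62 of them had at least 1 FPKM in all 12 libraries. The 24 of 99 that were higher stood beside 3.05% of all IDs tested, and the 33 that were lower beside 48.5%. As deposited, the median log2 difference LC minus LP was -0.64 over all IDs tested and -0.60 over the 99, so most IDs of the table read lower in LC. Median-ratio scaling moved the median of all IDs to -0.05. It then called 28 of the 99 higher and 26 lower, beside 10% and 11.3% of all IDs. No called difference changed sign. Quantile normalization called 28 higher and 28 lower, beside 11.2% and 11.5%. All 24 higher calls and 26 of the 33 lower calls held under both median-ratio scaling and quantile normalization. Of the called differences, 17 higher and 24 lower ones were at least 10-fold on the log2(FPKM + 1) scale, which understates the change of low IDs. Without LC muscle replicate 3, 26 IDs were higher and 43 lower.

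**Figure D3:**
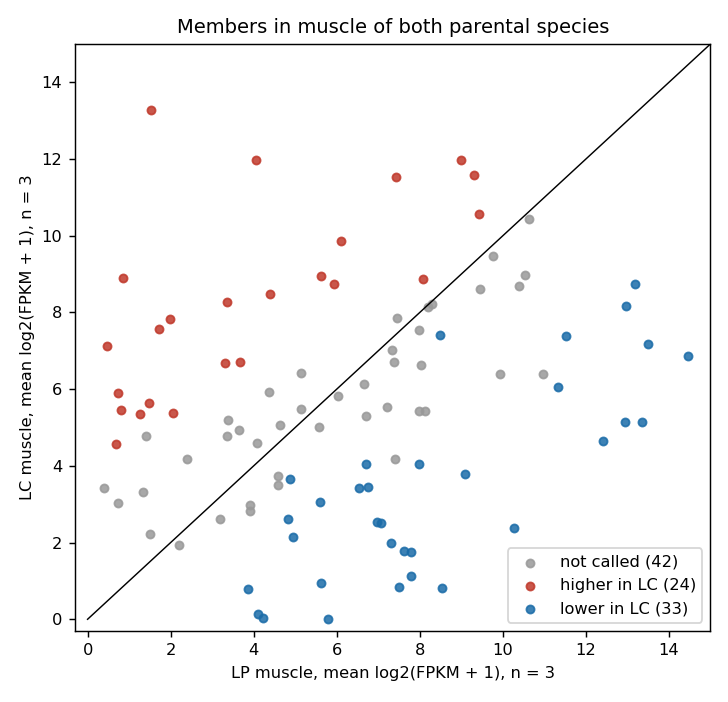
Mean log2(FPKM + 1) of the 99 IDs in LP muscle (x axis) and LC muscle (y axis), n = 3 libraries each, with the line of equal levels; red marks the 24 IDs called higher in LC, blue the 33 called lower and grey the 42 not called. Points lie far from the line on both sides.

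IDs lower in LC were led by the abundant ones. BGI_novel_G002593 had 11904, 8924 and 10506 in LP and 5.81, 1.40 and 2718 in LC, so the groups did not overlap although LC replicate 3 was far above the other LC libraries. The log2 difference LC minus LP was -8.19 ± 1.82 (SE; limma adjusted p = 0.00393), and it was -11.33 without that library. BGI_novel_G002565, given above, had -7.58 ± 1.27 (SE; limma adjusted p = 9.49e-04), and -9.77 without it. BGI_novel_G002604 had 7275, 6531 and 3442 in LP and 7.41, 4.07 and 376 in LC. All LP libraries were above all LC libraries, and the log2 difference was -7.76 ± 1.15 (SE; limma adjusted p = 5.41e-04), or -9.71 without LC replicate 3. BGI_novel_G000028 had 9174, 5512 and 9465 in LP and 5.14, 30.3 and 230 in LC, again without overlap, with a log2 difference of -7.79 ± 0.93 (SE; limma adjusted p = 1.85e-04). BGI_novel_G000326, whose 3 LC libraries were all under 10, had -7.89 ± 0.45 (SE; limma adjusted p = 6.39e-07).

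Less abundant IDs were also lower in LC, some with close and some with widely spread LP libraries. BGI_novel_G000041 had 391, 613 and 209 in LP and 0.1, 0.16 and 3.28 in LC, a log2 difference of -7.71 ± 0.50 (SE; limma adjusted p = 1.41e-06). BGI_novel_G000016 had 194, 384 and 145 in LP and 1.44, 2.14 and 3.98 in LC, a log2 difference of -6.05 ± 0.36 (SE; limma adjusted p = 8.03e-07). Neither pair of groups overlapped. BGI_novel_G002062 was listed at 0 in all 3 LC muscle libraries and had 283, 5.78 and 88.9 in LP (limma adjusted p = 0.0165). LP replicate 2 was near the LC libraries there, and the LP libraries were widely spread. BGI_novel_G002590, BGI_novel_G000030 and BGI_novel_G000012 were also among the 10 largest falls, with log2 differences of -6.31, -6.67 and -6.66 and limma adjusted p-values of 0.00546, 0.00188 and 0.0141. The LP libraries of BGI_novel_G000012 ran from 13.5 to 1412. Its call was lost without LP muscle replicate 2. Without the LP libraries its muscle mean would have been under 20, so its LP level put it in the set. Without LC muscle replicate 3 the difference of BGI_novel_G002590 was -8.56.

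IDs higher in LC were headed by BGI_novel_G002556, with a log2 difference of 11.77 ± 1.02 (SE; limma adjusted p = 1.93e-05); as LP was listed at 0 in 2 of 3 libraries, its size depends on the added 1. BGI_novel_G002586 had 15.1, 15.5 and 16.6 in LP and 3245, 2022 and 9887 in LC. The groups were far apart, and the log2 difference was 7.91 ± 1.03 (SE; limma adjusted p = 2.98e-04). BGI_novel_G000038 had 1.31, 1.59 and 0 in LP and 93.2, 821 and 1378 in LC, without overlap, and a log2 difference of 8.03 ± 1.64 (SE; limma adjusted p = 0.00264). BGI_novel_G002557 had 129, 323 and 122 in LP and 7438, 2649 and 1315 in LC, with a log2 difference of 4.10 ± 0.61 (SE; limma adjusted p = 5.46e-04). BGI_novel_G002577 had 554, 428 and 551 in LP and 2531, 3495 and 7540 in LC, a log2 difference of 3.0 ± 0.34 (SE; limma adjusted p = 1.52e-04). In BGI_novel_G002611 and BGI_novel_G001510 most of the LC level came from 1 library. BGI_novel_G002611 had 71.8, 36.7 and 4248 in LC against 2.81, 3.93 and 2.28 in LP. Its log2 difference of 5.84 (limma adjusted p = 0.00627) was 3.73 without LC replicate 3. Without the LC libraries its muscle mean would have been under 20, so its LC level put it in the set. BGI_novel_G001510 had 552, 10.6 and 18.3 in LC against 0.120, 7.41 and 1.34 in LP (log2 difference 4.15, limma adjusted p = 0.0185), and its call was lost without LC replicate 1 and without LP replicate 1. The 10 largest rises also held BGI_novel_G001501, BGI_novel_G002832, BGI_novel_G002581 and BGI_novel_G002579, with log2 differences of 6.66, 5.86, 5.16 and 4.93.

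Close neighbours in number could differ in opposite directions between the species. In the run BGI_novel_G000088 to BGI_novel_G000093, BGI_novel_G000091 had 203, 180 and 107 in LP and 4.46, 2.11 and 2.63 in LC, a log2 difference of -5.33 ± 0.34 (SE; limma adjusted p = 1.41e-06). BGI_novel_G000093 had 31.7, 64.0 and 105 in LP and 396, 508 and 382 in LC, a log2 difference of 2.81 ± 0.37 (SE; limma adjusted p = 3.39e-04). The libraries of LP and LC did not overlap in either. In the run BGI_novel_G002826 to BGI_novel_G002834, BGI_novel_G002828 had 222, 205 and 162 in LP and 2.34, 2.59 and 2.37 in LC. BGI_novel_G002831 had 60.1, 81.7 and 62.1 in LP and 946, 1059 and 786 in LC. Their log2 differences were -5.83 ± 0.50 and 3.76 ± 0.40 (SE; limma adjusted p = 1.67e-05 and 9.70e-05). The summed level of the 5 members of the run BGI_novel_G000088 to BGI_novel_G000093 was 566, 768 and 633 FPKM in LP and 897, 910 and 711 in LC, where 1 LP library overlapped the LC libraries, 209, 139 and 155 in LPC, and 365, 465 and 316 in LCP. All LPC and LCP libraries were below all those of the parents, with LPC the lower.

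The hybrids differed from the log2 mid-parent in both directions, which need not place them outside the parental range. The mean of both hybrids was higher in 35 of the 99 IDs, where 42.8% of all IDs tested were, and lower in 9, where 4.42% were. The median log2 difference was 1.06 over the 99, 1.03 over the 766 muscle-peaking EVM IDs and 0.38 over all IDs tested. Of those EVM IDs, 65.7% were higher and 6.40% lower. Hybrid libraries also counted in the muscle means that chose the 99 and these EVM IDs. With median-ratio scaling 21 were higher and 10 lower, beside 24.2% and 12.6% of all IDs, and the median over all IDs was 0.10. Quantile normalization gave 19 and 11, beside 15.2% and 16.6%. A linear mid-parent averaged both parental levels after each parent's mean log2(FPKM + 1) was turned back to the linear scale. Against it, 10 were higher and 14 lower, beside 35.9% and 5.31%. Of the 35 IDs, 27 also differed between the parents, as did 3 of the 9. The parental libraries are shared by these comparisons. Without LC muscle replicate 3, 47 were higher and 10 lower, and without LPC muscle replicate 3, 31 and 6.

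The hybrid mean of the 6 LPC and LCP libraries lay between the parental means in 52 IDs, above both in 34 and below both in 13. Among the 24 IDs with an LP mean at least 10 times that of LC, or with LC listed at 0, 21 were between. Their median ratio of the hybrid mean to the plain mean of both parental FPKM means was 1.06. The other ratios of this paragraph use the same plain mean, which is not the linear mid-parent of the test. Among the 23 with an LC mean at least 10 times that of LP, 18 were between and the median ratio was 0.465. Among the other 52, 13 were between, 26 above and 13 below, with a median ratio of 1.28. These are descriptions of means with no test. Without LC muscle replicate 3, 58 IDs were between, 35 above and 6 below. The median ratio then was 0.953 for the 22 IDs with LC at least 10 times LP and 1.20 for the 38 with LP at least 10 times LC. These groups were formed anew without that library, so their medians need not be of the same IDs as before. Without LPC muscle replicate 3 the counts were again 52, 34 and 13. BGI_novel_G002565 and BGI_novel_G002556 are examples. Their hybrid means of 15757 and 6192 stood at 1.35 and 1.21 times the plain mean of both parental FPKM means. Against the log2 mid-parent their differences were 3.27 ± 0.90 and 4.98 ± 0.72 (SE; limma adjusted p = 0.0105 and 3.20e-04), and against the linear one 0.48 and 0.10 (limma adjusted p = 0.753 and 0.937). BGI_novel_G000326 had 3.71 ± 0.32 against the log2 mid-parent (SE; limma adjusted p = 5.27e-05) and 0.76 against the linear one (limma adjusted p = 0.137).

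**Figure D4:**
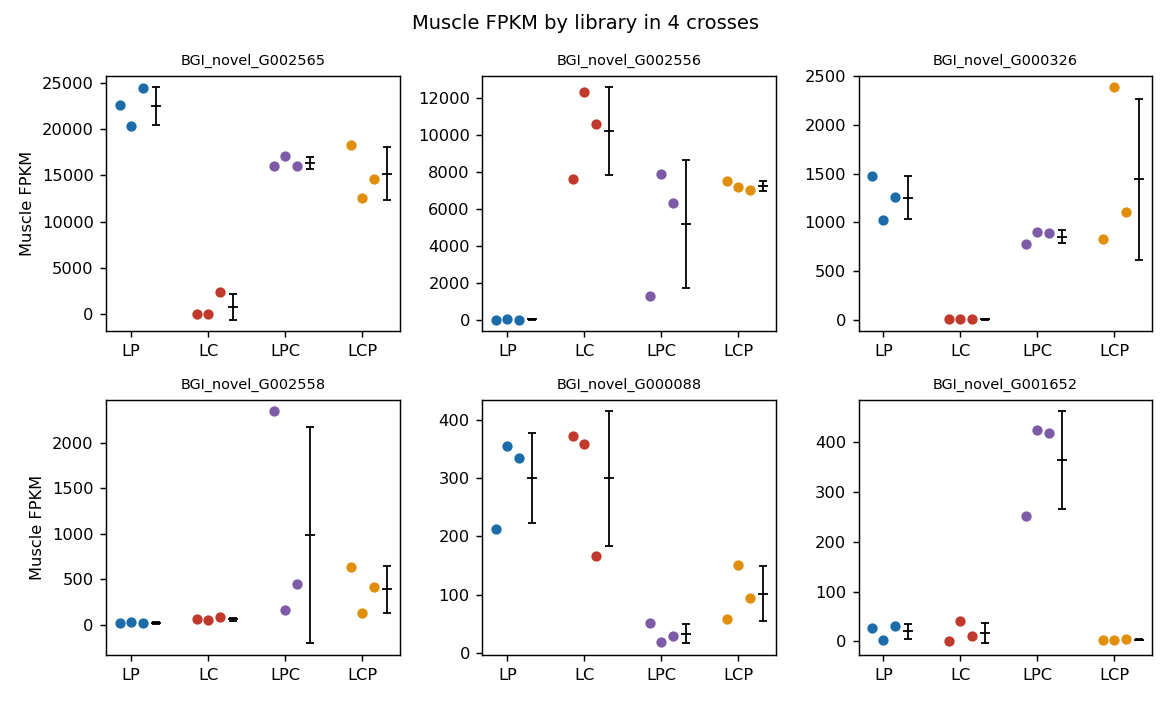
Muscle FPKM (linear axes that include 0 and can start below it, scaled per panel) of 6 IDs in LP, LC, LPC and LCP. Each point is a library and the black bar is the mean ± SD of 3 libraries. The upper panels show 3 IDs near 0 in one parent with all 6 hybrid libraries above it. The lower panels show IDs with hybrid libraries outside the range of both parents. In BGI_novel_G001652 only the LPC libraries are outside it, and the LCP libraries lie within it.

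A small number of IDs left the parental range. All 6 hybrid libraries lay above all 6 parental libraries in 2 of the 99 IDs and below them in 1. Of all 10847 IDs tested, 6.64% and 0.581% lay so. Of the 2 above, BGI_novel_G002219 had 22.75 to 40.85 in the hybrids and 1.03 to 18.6 in the parents. It thus reached the threshold of 20 only through the hybrid libraries. The other was BGI_novel_G002558. BGI_novel_G002558 had 15.1, 31.1 and 15.8 in LP, 56.5, 47.1 and 79.7 in LC, 2347, 162 and 441 in LPC and 637, 124 and 409 in LCP. Every hybrid library was above every parental one, although the LPC libraries spanned a wide range. The difference was 3.57 ± 0.58 against the log2 mid-parent (SE; limma adjusted p = 5.72e-04) and 3.37 against the linear one (limma adjusted p = 0.00167). BGI_novel_G000088 had 213, 356 and 334 in LP, 373, 359 and 166 in LC, 51.7, 18.7 and 29.3 in LPC and 57.8, 151 and 94.3 in LCP. Every hybrid library was below every parental one, with a log2 difference of -2.40 ± 0.32 (SE; limma adjusted p = 2.39e-04). Its neighbour BGI_novel_G000089 had 66.7, 46.5 and 85.8 in LP, 67.4, 33.4 and 74.9 in LC, 12.9, 7.59 and 7.81 in LPC and 16.8, 35.96 and 20.4 in LCP. One LCP library lay just above the lowest LC library, and the log2 difference was -1.95 ± 0.27 (SE; limma adjusted p = 2.77e-04). Another ID of that run, BGI_novel_G000090, had 51.9, 121 and 1.33 in LP, 56.0, 6.59 and 85.1 in LC and 0 to 9.39 in the hybrids. The hybrid libraries overlapped the low LP and LC libraries, and the log2 difference was -3.13 ± 0.90 (SE; limma adjusted p = 0.0134). These 3 calls held under each alternative tried. BGI_novel_G002595, BGI_novel_G000195 and BGI_novel_G000196 were also lower, by -1.30, -0.59 and -0.62, and each lost its call when 1 of several libraries was left out, LPC replicate 3 among them. BGI_novel_G002826, BGI_novel_G002831 and BGI_novel_G002834, all of 1 run, made up the rest of the 9, with log2 differences of -1.77, -1.33 and -1.78.

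Tested against each parent by limma, LPC was above both in 7 of the 99 IDs, where 12.2% of all IDs tested were, and below both in 3, where 0.433% were. LCP was above both in 1, where 4.48% were, and below both in 2, where 1.08% were. With median-ratio scaling LPC was above both in 3 IDs and below both in 3, beside 5.24% and 1.51% of all IDs, and LCP in 0 and 0, beside 6.34% and 2.5%. The 3 IDs above both parents in LPC under either scale were BGI_novel_G001652, BGI_novel_G001574 and BGI_novel_G000561. LPC values also counted in the mean that chose the set. Of the 7 IDs, only BGI_novel_G002558 and BGI_novel_G000561 would have met the rule without their LPC libraries. The others, BGI_novel_G001652 and BGI_novel_G001574 among them, were in the set only through LPC, so the count of 7 is no evidence about the set. Without LPC muscle replicate 3 the 7 became 2, without LPC replicate 2 also 2, and without LP replicate 1 they became 4. The single LCP ID above both was BGI_novel_G002558; the count was 0 without LC replicate 1 or 2 or LCP replicate 1 or 3, and 2 without LP replicate 3 or LCP replicate 2. The pair below both parents in LCP was BGI_novel_G000088 and BGI_novel_G000089. That count was 0 without LC replicate 1, LCP replicate 1 or LCP replicate 3, and 1 without any LP library, LC replicate 2 or 3, or LPC replicate 3.

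LPC and LCP muscle differed in a small number of IDs. LPC was higher than LCP in 5 of the 99 IDs, where 4.36% of all IDs tested were, and lower in 4, where 0.415% were. Median-ratio scaling gave 3 and 3, beside 0.535% and 0.802%, and quantile normalization 2 and 2, beside 0.369% and 0.341%. BGI_novel_G001652 had 251, 424 and 418 in LPC against 3.13, 2.32 and 4.12 in LCP, with 26.6, 2.76 and 31.8 in LP and 0, 40.3 and 11.1 in LC. The LPC libraries stood above all 9 others, and the log2 difference LPC minus LCP was 6.43 ± 1.10 (SE; limma adjusted p = 0.0128). BGI_novel_G002121 had 65.8, 114 and 98.96 in LPC and was listed at 0 in all LCP libraries (limma adjusted p = 0.0229). BGI_novel_G002117 had 135, 96.7 and 103 in LPC and 3.75, 0 and 3.01 in LCP, a log2 difference of 5.38 ± 0.85 (SE; limma adjusted p = 0.00936). BGI_novel_G001574 had 50.5, 220 and 209 in LPC and 1.87, 7.95 and 6.14 in LCP, a log2 difference of 4.55 ± 0.61 (SE; limma adjusted p = 0.00315). BGI_novel_G001611, the fifth, had 234, 356 and 305 in LPC and 9.82, 2.58 and 24.5 in LCP (limma adjusted p = 0.0399). In all 5 the LPC and LCP libraries did not overlap. None of the 5 would have met the rule of the set without its LPC libraries. Their high LPC level is thus part of what chose them, and the count of 5 is no evidence about the set.

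The 4 IDs lower in LPC came from 2 runs of close numbers, BGI_novel_G002826, BGI_novel_G002828 and BGI_novel_G002831 from one and BGI_novel_G000091 from the other. BGI_novel_G000091 had 15.6, 14.5 and 11.0 in LPC and 90.4, 44.9 and 51.8 in LCP, a log2 difference of -2.05 ± 0.34 (SE; limma adjusted p = 0.0120). The others had log2 differences of -2.20, -2.17 and -1.98 with limma adjusted p-values of 0.0444, 0.0327 and 0.0236. In all 4 the groups did not overlap. LPC muscle replicate 3 lay between its group's other libraries as described above, and the spread in LPC muscle was low: the median coefficient of variation of the 99 IDs was 26.9% in LPC, 42.6% in LCP, 45.6% in LP and 87.7% in LC. For the 766 EVM IDs it was 12.7%, 29.2%, 29.5% and 34.8%. Without LPC replicate 3 the counts of 5 and 4 became 2 and 0. BGI_novel_G001574 and BGI_novel_G002117 stayed called, while the limma adjusted p was 0.0607 for BGI_novel_G001652, 0.1001 for BGI_novel_G002121, 0.142 for BGI_novel_G001611, 0.0686 for BGI_novel_G000091 and 0.0986 to 0.153 for the other 3 IDs lower in LPC. BGI_novel_G001611 also lost its call without LC replicate 3, with a limma adjusted p of 0.0511. The counts became 3 and 1 without LPC replicate 2, and without LCP replicate 1 or 2 the first became 3. The deviations of LPC muscle replicate 3 hardly followed those of LPC replicate 3 in brain or liver, with correlations of 0.022 and 0.017. For LPC replicates 1 and 2 they were 0.134 and 0.205 with brain and 0.209 and 0.261 with liver. Why LPC muscle replicate 3 differs in this way, or lies between the others, was not tested.

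In brain, 40 of the 99 IDs passed the filter, and the libraries differed in how many of the set they held. At least 1 FPKM was reached by 50 IDs in LP brain replicate 2 and by 54 in LPC brain replicate 2, against 17 to 30 in the other 10 brain libraries. In BGI_novel_G002565 the 3 LP brain libraries held 3.37, 46.1 and 2.11 and the 3 LPC brain libraries 14.5, 93.4 and 0.910, against at most 2.09 in LC and LCP brain. Those 2 libraries were thus the highest in brain for the ID that was most abundant in muscle. The 766 muscle-peaking EVM IDs took 4.63% and 4.75% of the FPKM sum in these 2 libraries and 4.25% to 4.57% in the other brain libraries. Without LPC brain replicate 2, LC minus LP in brain had 2 IDs higher and 4 lower, where all libraries gave 1 and 3. Without LP brain replicate 2, the IDs with a smaller LC minus LP in muscle than in brain were 8, where all libraries gave 5. Why these libraries held more of the set was not tested.

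Parental differences in brain were called for 4 of the 40 IDs. LC was higher than LP in 1, where 1.68% of 17931 IDs tested were, and lower in 3, where 1.74% were. BGI_novel_G000324 was higher, by a log2 difference of 1.32 ± 0.27 (SE; limma adjusted p = 0.0252), as it was in muscle. That count was 0 without LP replicate 3, LC replicate 1 or LC replicate 3, and 2 without LPC replicate 1 or 2. BGI_novel_G000326, BGI_novel_G001302 and BGI_novel_G001634 were lower, by -3.15, -3.35 and -4.998 (limma adjusted p = 0.00118, 0.00274 and 0.0421). No ID of the set differed between the hybrids and the log2 mid-parent in brain by limma, where 0.039% of all IDs tested were higher and 0.0112% lower. At an unadjusted p under 0.05, 2 were higher and 0 lower. In liver, 21 IDs passed the filter. LC was higher than LP in 3, where 8.07% of 12553 IDs tested were, and lower in 3, where 7.52% were. The higher ones were BGI_novel_G002060, BGI_novel_G000325 and BGI_novel_G002475. That count was 0 without LP replicate 2, LC replicate 1 or LC replicate 2 and 1 without LP replicate 1. It was at most 2 whichever liver library was left out. The lower ones were BGI_novel_G001606, BGI_novel_G001634 and BGI_novel_G001574. Against the log2 mid-parent in liver, 1 ID was lower, where 29.9% were, and 0 higher, where 2.64% were. The 1 was BGI_novel_G000326, by -1.10 (limma adjusted p = 0.0178). The lower count was 2 without LC replicate 2 or 3, and the higher count was 1 without LC replicate 2, LPC replicate 2 or LCP replicate 1.

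Whether the parental difference itself differed between tissues was tested with an interaction term. The fit did not pair tissues by replicate number, and counts with that number as a block are given at the end. Against brain, LC minus LP was larger in muscle in 6 of 40 IDs, where 0.679% of 10156 IDs tested were, and smaller in 5, where 13.9% were. Against liver it was larger in 1 of 21, where 1.26% of 9148 were, and smaller in 4, where 34.5% were. With median-ratio scaling the counts were 6 and 2 against brain, beside 1.46% and 1.64% of all IDs, and 1 and 1 against liver, beside 3.34% and 4.8%. BGI_novel_G000326 was lower in LC in both muscle and brain, and the muscle difference was the larger by 4.74 on the log2 scale, an interaction of -4.74 ± 0.60 (SE; limma adjusted p = 1.10e-04). BGI_novel_G002556 had an interaction of 11.80 ± 1.71 (SE; limma adjusted p = 3.21e-04), with at most 6.23 FPKM in any LP or LC brain library. This is nearly its muscle difference of 11.77, and the brain difference of -0.03 was not called. For an ID chosen for its muscle level and near 0 in the other tissue, the interaction shows little beyond the muscle difference. The smaller count against brain was 2 without LC muscle replicate 1 or LP brain replicate 3, 3 without LP brain replicate 1 or LC brain replicate 2 or 3, and 8 without LC muscle replicate 3 or LP brain replicate 2.

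Single libraries were high in many IDs at once, which was noticed after the values were seen. In LP muscle, replicate 2 was at least 2-fold above both other libraries in 21 of the 99 IDs. In LPC muscle that held for replicate 1 in 18 IDs, and in LCP muscle for replicate 2 in 17. The same shares of the 766 EVM IDs were 4.18%, 2.22% and 5.61%, against 21.2%, 18.2% and 17.2% of the 99. With LC replicate 3, 4 IDs were at least 2-fold above in all 4 of these libraries, and no other ID in the table was. They were BGI_novel_G000012, BGI_novel_G000030, BGI_novel_G002562 and BGI_novel_G002592, and they come from the 2 largest runs. BGI_novel_G002562 had 299, 3838 and 294 in LP, 128, 68.1 and 6773 in LC, 469.4, 2.20 and 85.4 in LPC, and 126, 3289 and 237 in LCP. BGI_novel_G002592 had 208, 2000 and 49.9 in LP, 18.1, 10.7 and 362 in LC, 208, 12.5 and 45.2 in LPC, and 53.0, 2366 and 62.4 in LCP. In both, 1 library of each cross was 2-fold or more above the others. Of the 81 ways to take 1 library per cross, the set LP 2, LC 1, LPC 1 and LCP 2 was shared by more IDs, 30, of which 2 were among the 99. These are counts with no test, and what the libraries share was not tested.

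**Figure D5:**
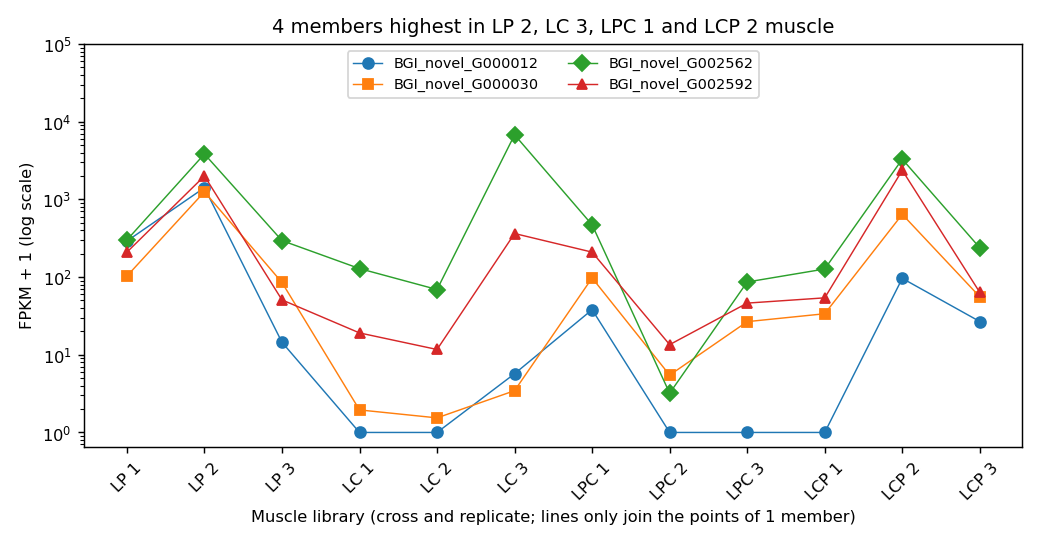
FPKM + 1 (log axis) of 4 IDs in each of the 12 muscle libraries; lines only join the points of 1 ID. In each cross the same library is the highest for all 4 IDs: LP 2, LC 3, LPC 1 and LCP 2.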

How the data were processed

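RNA-seq levels of 24212 IDs were read from 1 table of 36 libraries, 3 for each of 4 crosses in brain, liver and muscle. The authors deposited the values as FPKM, per the file headers. Reads were handled with fastp, per the submitters' processing notes. Which aligner, counting tool, build or annotation the authors used is not given in the sources used here. Whole fragments could not be recovered from the low values, so the depth of each library is unknown, and no interval or floor from counts is given.

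FPKM was used as deposited. Within each tissue, limma 3.58.1 in R 4.3.3 was fitted to log2(FPKM + 1) over the 4 crosses with a trended prior, for IDs that reached an FPKM of 1 in 3 or more of the 12 libraries. P-values were adjusted by the Benjamini-Hochberg method over all IDs tested, with a threshold of 0.05. Tissue interactions used the 24 LP, LC, LPC and LCP libraries of 2 tissues. The procedure was tested on simulated data. Tables and figures used Python 3.11.15, pandas 2.3.3, numpy 2.4.6 and matplotlib 3.10.9. No 2 libraries held identical values.

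Alternatives were a pseudocount of 0.1, no filter, median-ratio scaling, quantile normalization, a linear mid-parent, the replicate number as a block and leaving out each library in turn. Leaving out both LC muscle 3 and LPC muscle 3, or each with median-ratio scaling, or either for the hybrid position, was added after seeing the data. Within a tissue, no pair of crosses had all 3 same-number correlations of deviations above 0.1, so the numbers were not taken to pair crosses. The replicate 1 brain libraries did deviate together in each pair of crosses, with correlations of 0.264 to 0.656. Across tissues, same-number libraries of LP and LC did deviate together. Correlations were 0.104 to 0.214 between muscle and brain and 0.212 to 0.322 between muscle and liver. The numbers were taken to pair these LP and LC libraries, on the data alone. LCP was alike, with 0.176 to 0.232 and 0.17 to 0.274. LPC replicates 1 and 2 had 0.134 and 0.205 with brain and 0.209 and 0.261 with liver. Replicate 3 of LPC had only 0.022 and 0.017. The main interaction fits did not use the pairing, which entered only through the replicate block, an alternative.

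The members and lists were chosen with earlier results of these data known. Named IDs were the 10 most abundant, the 10 largest differences in each direction per muscle comparison among calls whose libraries did not overlap (against the mid-parent, calls where each of the 6 hybrid libraries lay on the same side of it), and the extremes of the tissue ratio, of the threshold, of the tissue interactions, of the calls outside both parents and of the share held by 1 library. IDs named outside that rule, such as neighbours in number, were chosen after their values were seen.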

Additional observations from a re-analysis of the deposited data

Results flagged for a closer look

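The difference LC minus LP was not the same in muscle and another tissue for the following IDs, by an interaction term in limma with Benjamini-Hochberg adjustment over all IDs tested. The fit did not pair tissues by replicate number, and the set was chosen for peaking in muscle. Where an ID is near 0 in the other tissue in both parents, the interaction largely restates its muscle difference. All values are log2 differences of differences on the log2(FPKM + 1) scale, with 3 libraries in each group.

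Against brain, the interaction was 11.80 for BGI_novel_G002556 (adjusted p = 3.21e-04), 7.03 for BGI_novel_G002586 (adjusted p = 0.00513), 3.80 for BGI_novel_G002577 (adjusted p = 0.00786), 3.80 for BGI_novel_G002557 (adjusted p = 0.00850) and 2.86 for BGI_novel_G002582 (adjusted p = 0.0232). These 5 were higher in LC muscle, none was called in brain, and the brain difference was below 0 in BGI_novel_G002556, BGI_novel_G002577 and BGI_novel_G002582, at -0.03, -0.80 and -0.58. Their brain means were at most 2.10 FPKM in either parent. It was -7.03 for BGI_novel_G002593 (adjusted p = 0.0475), -6.30 for BGI_novel_G002604 (adjusted p = 0.0166), -6.05 for BGI_novel_G000028 (adjusted p = 0.00619), -4.74 for BGI_novel_G000326 (adjusted p = 1.10e-04) and -4.10 for BGI_novel_G000046 (adjusted p = 0.0259). Of these 5, BGI_novel_G000326 had brain means of 465 in LP and 53.2 in LC, and the others at most 6.57 in LP and 0.24 in LC. With median-ratio scaling BGI_novel_G002593, BGI_novel_G002604 and BGI_novel_G000046 were not called. With a pseudocount of 0.1 those 3 and BGI_novel_G000028, BGI_novel_G002557, BGI_novel_G002582 and BGI_novel_G002586 were not called. Over the alternatives run, BGI_novel_G002593 lost its call in 12, among them leaving out any LP muscle library, BGI_novel_G000046 in 8, and BGI_novel_G002604 and BGI_novel_G002582 in 4 each. BGI_novel_G002556, BGI_novel_G002577 and BGI_novel_G000326 lost it in 0.

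Against liver, the interaction was 3.325 for BGI_novel_G002577 (adjusted p = 0.00344), -7.28 for BGI_novel_G000326 (adjusted p = 6.97e-07), -5.09 for BGI_novel_G002060 (adjusted p = 0.0242), -2.88 for BGI_novel_G000325 (adjusted p = 0.0110) and -2.30 for BGI_novel_G000561 (adjusted p = 0.00297). With median-ratio scaling BGI_novel_G002060, BGI_novel_G000325 and BGI_novel_G000561 were not called, and BGI_novel_G002060 lost its call in 5 alternatives in all. BGI_novel_G002577 had liver means of 0.273 in LP and 0 in LC.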

How the results depend on the processing

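Of 60 tested values of named IDs, 34 lost their call under at least 1 alternative and 0 changed sign. For counts that moved by over 1.5 times the cause was not tested.

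Hybrids against the mid-parent in muscle had 35 IDs higher, and 21 with median-ratio scaling, 19 with quantile normalization, 10 with a linear mid-parent and 13 without LPC muscle 3 after scaling; the 9 lower were 14 with a linear mid-parent. For LPC against LCP, the 5 higher were 3 with a pseudocount of 0.1, without the filter, with median-ratio scaling and without both LC muscle 3 and LPC muscle 3, 2 with quantile normalization and 0 without LPC muscle 3 after scaling. The 4 lower were 2 without the filter and with quantile normalization, and 0 without both libraries and without LPC muscle 3 after scaling.

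The 7 IDs with LPC above both parents were 3 with a pseudocount of 0.1, without the filter and with median-ratio scaling, 1 with quantile normalization, 4 without both libraries and 0 without LPC muscle 3 after scaling. The 3 below were 6 with quantile normalization and 5 without LC muscle 3 after scaling. The 1 with LCP above both was 0 without the filter, with either normalization, without both libraries and without LPC muscle 3 after scaling, and 2 without LC muscle 3 after scaling. The 2 below were 1 without the filter and without both libraries, and 0 with median-ratio scaling and without LC muscle 3 or LPC muscle 3 after scaling. LC against LP in brain had 2 higher with a pseudocount of 0.1. The 1 lower in liver hybrids was 2 without the filter and 0 with either normalization. For muscle against brain, the 6 higher were 3 with a pseudocount of 0.1, and the 5 lower were 2 with median-ratio scaling and 1 with a pseudocount of 0.1. For muscle against liver the 4 lower were 1 with median-ratio scaling. The rule itself kept 160 IDs with median-ratio scaling of all 36 libraries, 97 of them shared with the 99.

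Leaving out 1 library gave ranges of 22 to 27 higher and 29 to 43 lower for LC against LP in muscle, 30 to 47 and 6 to 10 for hybrids against the mid-parent, and 2 to 6 and 0 to 5 for LPC against LCP. For LPC outside both parents it gave 2 to 8 above and 2 to 4 below, and for LCP 0 to 2 and 0 to 3. In brain LC against LP ranged over 0 to 2 and 2 to 4, and in liver over 0 to 2 and 2 to 3. Hybrids in brain stayed at 0 and 0, and in liver ranged over 0 to 1 and 1 to 2. Muscle against brain ranged over 5 to 6 and 2 to 8, and muscle against liver over 1 to 1 and 3 to 5. The rule kept 94 to 103 IDs.

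With the replicate block, LCP below both parents was 1 and the liver hybrids had 2 lower. The other block counts were 24 and 33 for LC against LP in muscle, 39 and 9 for hybrids, 5 and 4 for LPC against LCP, 6 and 7 for muscle against brain and 1 and 5 for muscle against liver. As depth is unknown, values near 0 FPKM cannot be told from absence.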
